A study of Homo sapiens with 6 samples.

Results

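The histone genes were taken by their current symbols: every probe set with a single platform gene symbol of the H1, H2A, H2B, H3, H4 or macroH2A series was kept, and the brightest probe set stood for each gene. This gave 75 genes of 18132 on the array. Of them, 62 are replication-dependent genes, 12 are variant genes and 1 is a pseudogene. Some 32 of the 75 had a mean log2 value of at least 4.64, the 40th percentile of all probe sets, and were tested: 25 replication-dependent and 7 variant genes.

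RNA came from ARPE-19, an established line of human retinal pigment epithelium, with 1 array for each of 6 samples. By the treatment protocol all cells carried a plasmid for green fluorescent protein (GFP), and 48 h after transfection the 3 h group (3 arrays) was exposed for 3 h to glucose oxidase at 10 mU/ml, an enzyme that makes hydrogen peroxide from glucose, while the 0 h group (3 arrays) was not. The sample titles give the exposure as H2O2. The descriptions of the 3 h samples instead name a GFP construct with alpha satellite, the centromeric repeat, so treatment and transfected construct cannot be told apart. No group was kept for 3 h without the enzyme, and nothing says that the replicates were separate cultures, so the p-values measure only the spread between these samples, which may be technical.

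Histones package DNA into nucleosomes. The replication-dependent genes sit mostly in clusters, are transcribed in S phase and, as background, mostly yield mRNA that ends in a stem-loop bound by the protein SLBP instead of a poly-A tail. The variant genes are expressed outside S phase as well and yield polyadenylated mRNA, and H2AX is known to make both forms. The labelling kit was a 3′ IVT kit, which primes from poly-A tails, so the values of replication-dependent genes stand for those transcripts that the kit could copy. In bulk samples, fewer cells making a transcript and less transcript per cell cannot be told apart, and fewer cells in S phase is such a case.

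Over all 12221 genes tested, 20.6% were higher and 30.8% were lower at 3 h, 51.3% in all (limma, adjusted p under 0.05). Without any overlap between 3 h and 0 h arrays were 60.5% of these genes, 24.8% upward and 35.7% downward. "Rose", "fell", "higher" and "lower" with a call refer to that threshold. All 24 probe sets for poly-A spikes read below every 0 h array on each of the 3 h arrays, by a median of -0.60 (log2), and the 5′ minus 3′ difference of actin was -1.20 ± 0.06 at 3 h and -2.06 ± 0.07 at 0 h (log2, SD, n = 3 each, two-sided exact permutation p = 0.1, the smallest possible with 3 against 3 arrays). These control values move with the groups, and their part in the histone results was not tested. Of the retinal pigment epithelium markers, RPE65 and RLBP1 lay under the floor on both sides. Of the 10 tested markers of that list 5 were higher at 3 h (KRT8, KRT18, TJP1, MITF and OTX2) and 1 lower (SERPINF1, -0.40). BEST1, TYR, TTR and PMEL, with means of 4.72 to 5.80, were not called. The summed linear signal over the list was 10998 to 11622 at 3 h and 8829 to 9050.02 at 0 h. Most of that sum comes from KRT18 and KRT8, with mean log2 values of 12.39 and 11.68. Of 4 tested markers of blood and endothelium 0 were called in limma, 2 of them with an unadjusted p under 0.05. Of 4 tested markers of photoreceptors and neurons 2 were lower, PDE6B (-0.36) and SYT1 (-0.22), with a summed signal over the list of 1419 to 1517 at 3 h and 1434 to 1449 at 0 h. Of 3 tested markers of fibroblasts and mesenchyme 1 was higher, PDGFRB (0.59), with a summed signal over the list of 12570 to 12972 at 3 h and 12004 to 12350 at 0 h. Most of the neuron sum comes from TUBB3 (mean log2 10.32) and most of the mesenchyme sum from VIM (13.60), both not called. The part of these markers in the histone results was not tested.

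Promoter windows show how the clustered genes are arranged. The 250 bases before the gene start were read from RefSeq (GRCh38.p14) for 68 of the 75 members, using the first listed window of each gene. An H2A and an H2B gene on opposite strands often share a window: 13 pairs of histone members had overlapping windows, all but the pair H3C4 and H2AC7 on opposite strands, and the 4 pairs with both genes tested are described further on. Shown here are the windows of those 4 pairs and of a core H4 gene and a linker H1 gene whose brightest probe sets were called. The last window is that of H2AX, the member with the largest change. Capitals mark matches, on either strand and with overlaps allowed, to CCAAT (a box found in many promoters), to the TATA element TATAAA, to the octamer ATTTGCAT known from H2B promoters, to the H1 box AAACACA and to GGTCCG, the core of an element of H4 promoters. In H2BC21 a match to the last of these overlaps a CCAAT box.
H2AC8, shared with H2BC8, chr6:26216671-26216920, plus strand: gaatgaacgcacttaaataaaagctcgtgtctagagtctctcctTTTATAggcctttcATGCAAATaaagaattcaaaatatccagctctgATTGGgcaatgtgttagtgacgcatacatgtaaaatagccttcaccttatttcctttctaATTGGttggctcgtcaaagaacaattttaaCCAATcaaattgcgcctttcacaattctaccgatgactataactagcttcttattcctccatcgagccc
H2AC11, shared with H2BC11, chr6:27132793-27133042, plus strand: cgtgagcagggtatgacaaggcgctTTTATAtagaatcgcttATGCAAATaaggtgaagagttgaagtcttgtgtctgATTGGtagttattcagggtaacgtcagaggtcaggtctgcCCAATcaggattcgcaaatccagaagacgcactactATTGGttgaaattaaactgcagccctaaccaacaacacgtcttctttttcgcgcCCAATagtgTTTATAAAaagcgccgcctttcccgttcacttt
H2BC4, shared with H2AC6, chr6:26123927-26124176, minus strand: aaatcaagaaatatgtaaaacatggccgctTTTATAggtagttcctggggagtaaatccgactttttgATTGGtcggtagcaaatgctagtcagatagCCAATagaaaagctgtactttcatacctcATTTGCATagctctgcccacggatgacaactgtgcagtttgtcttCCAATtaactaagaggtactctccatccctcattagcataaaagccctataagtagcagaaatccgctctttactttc
H2BC21, shared with H2AC20, chr1:149886683-149886932, minus strand: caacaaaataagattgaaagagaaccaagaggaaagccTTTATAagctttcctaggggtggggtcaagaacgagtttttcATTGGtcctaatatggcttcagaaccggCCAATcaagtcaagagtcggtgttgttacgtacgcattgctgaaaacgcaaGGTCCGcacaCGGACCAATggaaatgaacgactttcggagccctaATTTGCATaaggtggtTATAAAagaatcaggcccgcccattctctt
H4C8, chr6:26285535-26285784, minus strand: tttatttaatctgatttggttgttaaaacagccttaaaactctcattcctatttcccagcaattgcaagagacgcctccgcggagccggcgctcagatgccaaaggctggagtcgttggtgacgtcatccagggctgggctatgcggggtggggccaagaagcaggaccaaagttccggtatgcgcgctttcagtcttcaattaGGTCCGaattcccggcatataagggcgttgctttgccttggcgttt
H1-4, chr6:26156079-26156328, plus strand: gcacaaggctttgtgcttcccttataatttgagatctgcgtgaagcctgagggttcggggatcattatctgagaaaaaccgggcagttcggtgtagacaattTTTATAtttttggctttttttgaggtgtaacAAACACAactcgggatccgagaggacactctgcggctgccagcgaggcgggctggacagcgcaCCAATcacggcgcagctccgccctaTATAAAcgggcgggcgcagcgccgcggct
H2AX, chr11:119095466-119095715, minus strand: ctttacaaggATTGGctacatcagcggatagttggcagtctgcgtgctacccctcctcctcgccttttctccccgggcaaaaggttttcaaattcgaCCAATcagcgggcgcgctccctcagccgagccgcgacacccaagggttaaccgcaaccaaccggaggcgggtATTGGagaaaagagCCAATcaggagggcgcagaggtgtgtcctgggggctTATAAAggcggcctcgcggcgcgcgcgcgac
The octamer was present in 14 of 18 windows of replication-dependent H2B genes and 11 of 14 of H2A genes, against 1.66% of the windows of all 27305 genes. Since many of these H2A and H2B windows overlap, both counts partly take in the same bases. AAACACA was present in 6 of 6 H1 windows, against 4.95% of all, and GGTCCG in 9 of 10 H4 windows, against 9.33% of all. CCAAT was present in 50 of 57 replication-dependent and 8 of 11 variant windows, against 33% of all. A match describes letters in the window only. Among the called replication-dependent genes, CCAAT stood in 4 of 4 windows of those that rose and 5 of 8 of those that fell, and the octamer in 2 of 4 that rose and 3 of 8 that fell. The fallen genes without CCAAT were the H4 genes H4C5, H4C8 and H4C12. Of the H4 windows 3 of 10 held CCAAT, and all windows of the other replication-dependent families did. A link between motif and direction was not tested.

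Among the variant genes, 3 of 7 tested rose and 0 fell (in limma, 0 also at an unadjusted p under 0.05), and H2AX changed most. The share called was 42.9%, beside 51.3% of all tested genes. H2AX encodes the H2A form that is phosphorylated next to DNA breaks. Its log2 values were 11.04, 10.97 and 10.97 on the 3 h arrays, against 10.27, 10.20 and 10.15 on the 0 h arrays. Every 3 h array lay well above every 0 h array, a 1.72-fold difference (log2 0.79, SE 0.06, adjusted p = 3.51e-05 in limma). H2AX kept its call under each of the 16 alternatives run, and its single probe set is an a_at set, a type that is not marked as shared between genes.

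The other variant calls were small. H3-3B, which encodes the replacement histone H3.3, had values of 12.90, 12.79 and 12.88 at 3 h, against 12.67, 12.71 and 12.64 at 0 h (log2 change 0.18, adjusted p = 0.0245). H2AZ2, for the H2A.Z.2 form found at promoters, had 10.59, 10.56 and 10.59 at 3 h, against 10.39, 10.46 and 10.37 at 0 h (log2 change 0.17, adjusted p = 0.0230). In both genes the 3 h arrays lay above the 0 h arrays without overlap, by little more than the spread within a group. H3-3B lost its call when 3 h array 1 or 3 was dropped (0.16, 0.17), and when 0 h array 1 or 3 was dropped (0.18, 0.16). H2AZ2 lost it when 0 h array 1 or 3 was dropped (0.16, 0.16). With each array centred on its median, both changes were 0.14 and not called, and both calls were also lost without a floor. Every probe set of H3-3B is an s_at or x_at set, so its change cannot be assigned to this gene alone. The direction of H2AZ2 depends on the probe set. Without s_at and x_at sets the change was -0.071, and the mean of all its sets gave 0.042, both not called. In the fit over all probe sets, an s_at set was called lower (-0.30, adjusted p = 0.00467). A dimmer s_at set was called higher (0.27, adjusted p = 0.00877). Its sets that are neither s_at nor x_at gave -0.071 and 0.14, both not called (adjusted p = 0.428 and 0.227).

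The remaining 4 tested variants did not pass. H1-10, a linker histone outside the clusters, had 9.90, 9.89 and 9.80 at 3 h, against 9.80, 9.71 and 9.70 at 0 h (log2 change 0.13, adjusted p = 0.0935). H2AZ1, the other H2A.Z gene, had 12.979, 13.003 and 13.011 at 3 h, against 13.027, 13.034 and 12.961 at 0 h (adjusted p = 0.889). The groups of H2AZ1 overlapped, and the 3 h and 0 h arrays of H1-10 were separated by less than 0.01. The macroH2A genes encode large H2A forms with an added macro domain. MACROH2A1 had 10.93, 11.08 and 10.95 at 3 h, against 11.04, 11.06 and 11.08 at 0 h (adjusted p = 0.320), and MACROH2A2 had 5.60, 5.84 and 5.59 at 3 h, against 5.69, 5.67 and 5.60 at 0 h (adjusted p = 0.805). Both overlapped between the groups. The median log2 change of the 7 tested variants was 0.13, beside -0.04 over all tested genes.

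**Figure D1:**
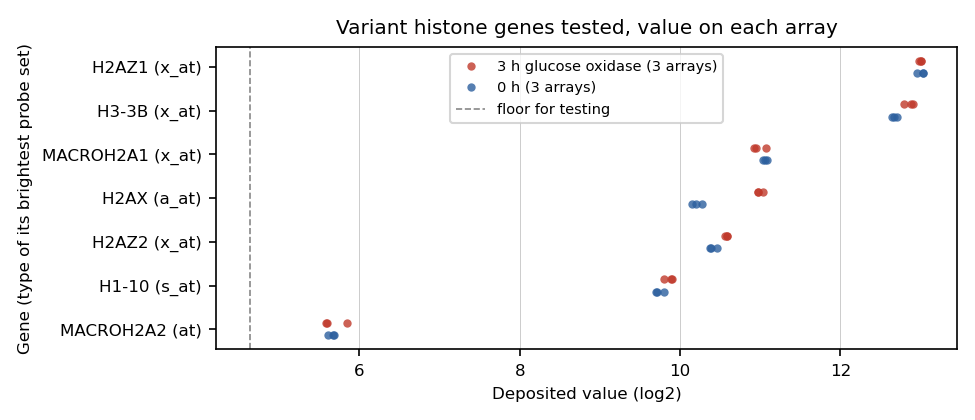
Deposited log2 value (horizontal axis) of the 7 tested variant histone genes on each array, with 3 h arrays in red above 0 h arrays in blue and the floor for testing at 4.64 as a dashed line. H2AX is the gene whose groups stand farthest apart, at 10.97 to 11.04 on the 3 h arrays and 10.15 to 10.27 on the 0 h arrays.

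Of the 25 tested replication-dependent genes, 4 rose, 8 fell and 13 did not pass. The 48% called lies near the 51.3% of all tested genes, and so the counts are close to the background. Their changes ran from -0.58 to 0.47 on the log2 scale, 19 below 0 and 6 above, with a median of -0.15. Of the 25 genes, 11 had no overlap between 3 h and 0 h arrays downward and 4 upward, beside 35.7% and 24.8% of all tested genes.

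The 8 called decreases were in core histone genes, all on chromosome 6, which holds 19 of the 25 tested genes. H2AC8, a core H2A gene, had 7.66, 7.56 and 7.67 at 3 h, against 8.25, 8.21 and 8.17 at 0 h. All 3 h arrays lay more than 0.5 below the lowest 0 h array, and the gene fell (log2 change -0.58, SE 0.06, adjusted p = 0.000117). H2AC11, another H2A gene, had 6.03, 5.86 and 5.93 at 3 h, against 6.47, 6.49 and 6.19 at 0 h (log2 -0.44, adjusted p = 0.00358). Replicate 3 was the lowest 0 h array for H2AC11, and the groups were still separate.

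The H4 genes all encode the same protein or nearly so, and 3 of 6 tested members fell while 0 rose. The 50% called stands beside 51.3% of all tested genes (20.6% higher, 30.8% lower). H4C5 had 6.11, 6.52 and 6.44 at 3 h, against 6.91, 6.78 and 6.67 at 0 h (log2 -0.43, adjusted p = 0.0104). H4C12 had 6.112, 6.298 and 6.260 at 3 h, against 6.723, 6.602 and 6.602 at 0 h (log2 -0.42, adjusted p = 0.00119). H4C8 had 6.85, 6.91 and 7.07 at 3 h, against 7.38, 7.52 and 7.19 at 0 h (log2 -0.42, adjusted p = 0.00575). All 3 were measured by s_at or x_at probe sets, which the maker marks as shared between genes or open to cross-hybridisation. In the fit over all probe sets, sets without that mark gave a log2 change of -0.01 for H4C5 (adjusted p = 0.929) and 0.20 for H4C12 (adjusted p = 0.0887), and H4C8 has none. For H4C12 the mean of both sets gave -0.11, not called. The decrease therefore cannot be assigned to single H4 genes. The uncalled H4 members were H4C3, H4C9 and the solitary gene H4C16. H4C3 had 11.94, 12.07 and 11.99 at 3 h, against 12.20, 12.26 and 11.96 at 0 h (log2 -0.14, adjusted p = 0.204), and passed once 0 h array 3 was dropped (-0.23).

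H2B genes moved both ways, with 3 of 9 tested higher and 2 lower. The share called was 55.6%, beside 51.3% of all tested genes (20.6% higher, 30.8% lower). H2BC5 had 8.79, 8.90 and 8.77 at 3 h, against 9.08, 9.10 and 9.11 at 0 h (log2 -0.28, adjusted p = 0.00357). H2BC4 had 6.941, 6.687 and 6.913 at 3 h, against 7.084, 7.150 and 7.003 at 0 h (log2 -0.23, adjusted p = 0.0377). The direction of H2BC5 depends on the probe set: a second set was called higher (0.24, adjusted p = 0.0156), and the mean of its sets gave -0.086, not called (adjusted p = 0.249). On the sets shown both genes stood lower on every 3 h array, and H2BC4 lost its call when 3 h array 2 (-0.15) or 0 h array 1 or 2 was dropped (-0.23, -0.20). H2BC15 had 5.95, 5.60 and 5.83 at 3 h, against 5.24, 5.38 and 5.35 at 0 h (log2 0.47, adjusted p = 0.00270). H2BC18 had 5.11, 5.25 and 5.12 at 3 h, against 4.72, 4.74 and 4.79 at 0 h (log2 0.41, adjusted p = 0.000659). H2BC21, which is also expressed in cells that no longer divide, had 7.43, 7.57 and 7.53 at 3 h, against 7.30, 7.32 and 7.33 at 0 h (log2 0.19, adjusted p = 0.0195). These 3 genes were higher on every 3 h array. H2BC15 and H2BC18, like H2BC4, were measured by s_at probe sets and had no unmarked set above the floor. The changes of H2BC15, H2BC18 and H2BC4 therefore cannot be assigned to single genes. In the fit over all probe sets, a second s_at set of H2BC18 gave 0.17, not called (adjusted p = 0.132). The 0 h mean of H2BC18 on its brightest set, 4.75, lay close to the floor of 4.64. H2BC21 lost its call when 3 h array 2 (0.17) or 0 h array 1 or 2 was dropped (0.19, 0.19), and with the mean of its probe sets (0.11). H2BC12, with 10.79, 10.83 and 10.87 at 3 h against 10.92, 10.90 and 10.98 at 0 h, was separated downward and not called (adjusted p = 0.138). H2BC11 passed, lower, once 3 h array 2 was dropped (-0.30).

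In the H1 and H3 families fewer genes were bright enough. H1-4, a linker histone, had 5.21, 5.15 and 5.34 at 3 h, against 4.78, 5.07 and 4.88 at 0 h (log2 0.32, adjusted p = 0.0131). It was higher on every 3 h array, and lost its call when 0 h array 1 was dropped (0.26). H1-2, the other tested linker gene of the clusters, changed by -0.07 (adjusted p = 0.322). H3C8, a core H3 gene, had 5.49, 5.51 and 5.56 at 3 h, against 5.69, 5.71 and 5.91 at 0 h (log2 -0.25, adjusted p = 0.0166). All 3 h arrays of H3C8 lay below the 0 h arrays. H3C8 was measured by an s_at set, and its other sets lay under the floor. H3C4 and H3-4, a testis form of H3, did not pass (adjusted p = 0.441 and 0.0627).

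**Figure D2:**
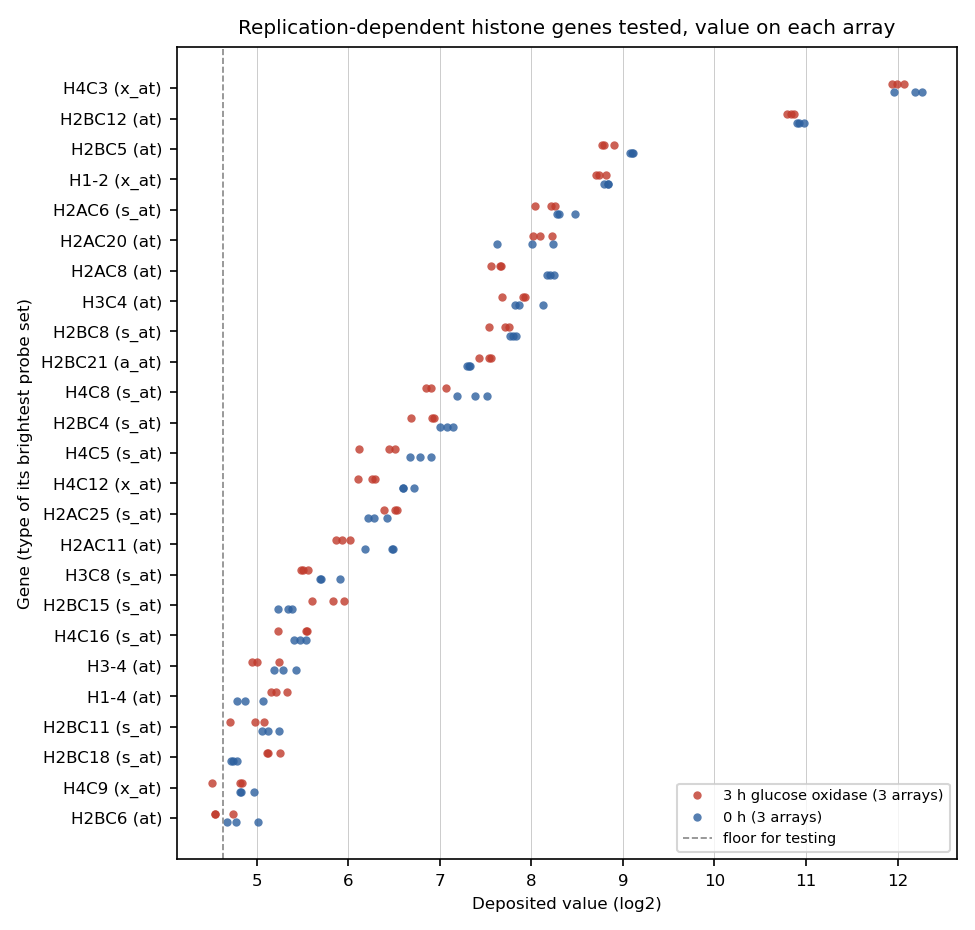
Deposited log2 value (horizontal axis) of the 25 tested replication-dependent histone genes on each array, 3 h arrays in red above 0 h arrays in blue, with the type of each gene's brightest probe set in brackets and the floor for testing at 4.64 as a dashed line. H2AC8 is separated by more than 0.5, while most other genes differ by little more than the spread within a group.

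By chromosome, the clusters on chromosome 6 held 19 tested genes, of which 2 rose and 8 fell (median log2 change -0.21). The 5 tested genes on chromosome 1 included 2 that rose, H2BC18 and H2BC21, and 0 that fell (median 0.17). The share called was 52.6% on chromosome 6 and 40% on chromosome 1, beside 51.3% of all tested genes. H2BC18 and H2AC25 were measured by s_at probe sets. H2AC25 on chromosome 1 changed by 0.17 (adjusted p = 0.0722) and passed once 3 h array 1 (0.22) or 0 h array 2 (0.23) was dropped. H2AC20, also there, changed by 0.15 (adjusted p = 0.383). H3-4, the fifth tested gene there, changed the other way, by -0.24 (adjusted p = 0.0627). It passed, lower, with quantile normalization (-0.27), median centring (-0.27), the mean of all probe sets (-0.24) and weights for arrays (-0.28), and once 3 h array 1 (-0.33) or 0 h array 3 (-0.29) was dropped. The difference between the chromosomes was not tested.

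Of the divergent pairs that share a promoter window, 4 had both genes tested, and in each the 2 log2 changes had the same sign. Of the 19 tested genes on chromosome 6, where 3 of these pairs lie, 17 had a change below 0, so a shared sign there is near the background. H2AC8 and H2BC8 changed by -0.58 and -0.13, H2AC11 and H2BC11 by -0.44 and -0.22, H2BC4 and H2AC6 by -0.23 and -0.18, and H2BC21 and H2AC20 by 0.19 and 0.15. In each pair 1 partner was called and the other was not, with adjusted p of 0.142 for H2BC8, 0.0915 for H2BC11, 0.0792 for H2AC6 and 0.383 for H2AC20. With 0 h array 2 dropped, H2AC20 turned to -0.012 and its pair no longer shared a direction.

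**Figure D3:**
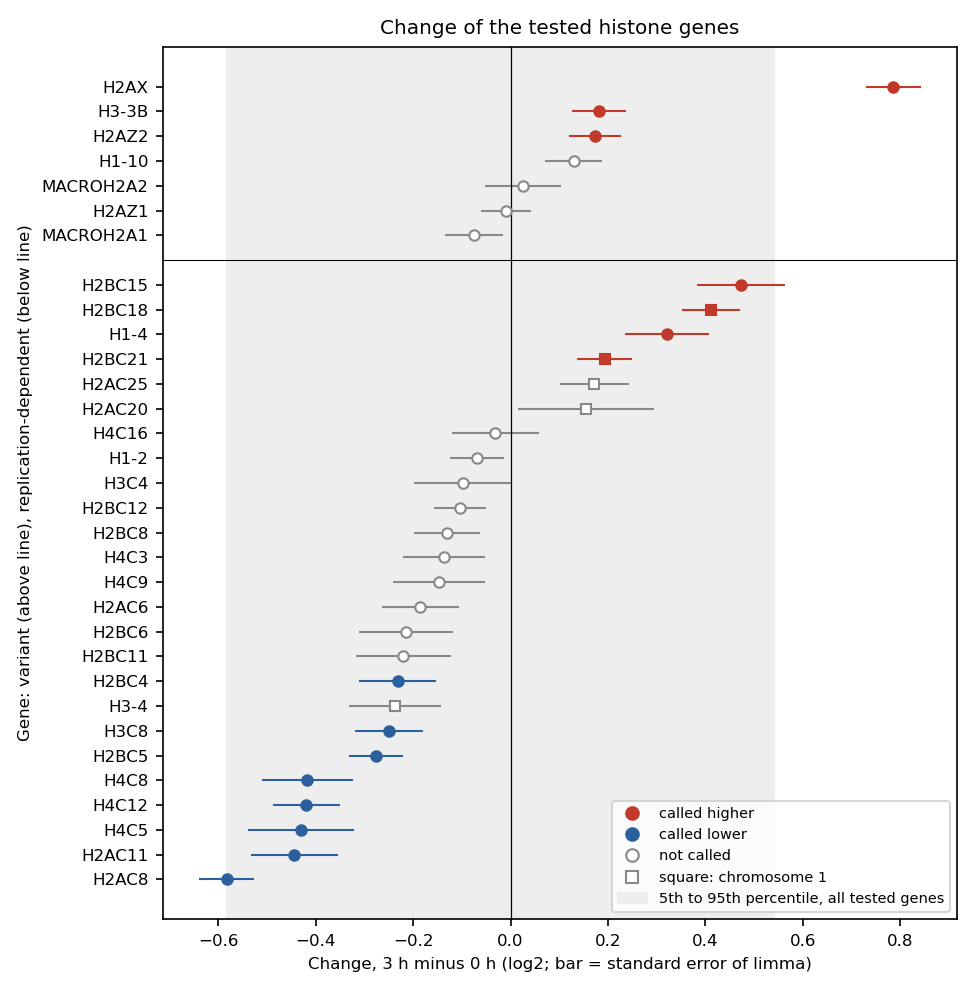
Log2 change, 3 h minus 0 h, of each tested histone gene with limma's standard error as a bar, variant genes above the line and replication-dependent genes below it. Red marks called increases, blue called decreases, open symbols no call, squares genes on chromosome 1, and the grey band the 5th to 95th percentile of all tested genes, -0.58 to 0.54, outside which only H2AX lies, at 0.79.

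Probe sets of the same gene did not always give the same answer. The 75 genes had 134 probe sets with a single symbol, 64 of them s_at or x_at, and 55 lay above the floor. Of these 55, 11 were called higher and 11 lower, beside 51.4% called over all probe sets tested (25.6% higher, 25.8% lower). H2AC8 fell on both of its probe sets (-0.58 and -0.36), as did H2BC4 (-0.23 and -0.42). H3-3B lay above 0 on all 4 of its probe sets (0.13 to 0.39), with 2 called, but all 4 are s_at or x_at sets. Probe sets were called in both directions for 2 genes. For H2BC5 a second set was called higher (0.24) against the brightest set (-0.28), and an x_at set gave -0.22, not called. For H2AZ2 2 sets were called higher (0.17 and 0.27) and another lower (-0.30). MACROH2A1, not called by its brightest set, had a further set called higher (0.27). For H2AZ1 the 4 sets lay between -0.08 and 0.01 with none called in limma.

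**Figure D4:**
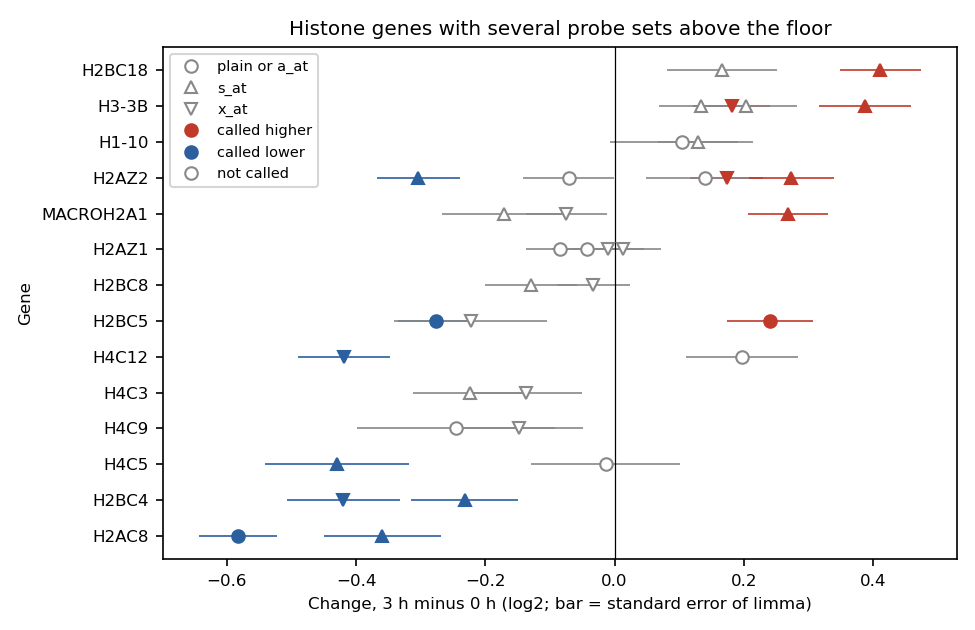
Log2 change with limma's standard error for each probe set above the floor, for the 14 histone genes that have several. Up-pointing triangles are s_at sets, down-pointing triangles x_at sets and circles other sets; H2AZ2 and H2BC5 carry calls on both sides of 0, and H4C5 and H4C12 show a decrease only on the marked sets.

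The 43 genes under the floor were not tested, and 37 of them are replication-dependent. Their means over all arrays ran from 2.08 to 4.48 and their log2 changes from -0.40 to 0.59. For 33 the groups overlapped, for 7 the 3 h arrays lay below and for 3 above. No such share was taken over all 5911 genes under the floor, so these counts have no background. The 3 above were the pseudogene H2BC20P (4.77 ± 0.26 at 3 h and 4.19 ± 0.21 at 0 h), H2BC7 (4.01 ± 0.03 at 3 h and 3.72 ± 0.11 at 0 h) and H2BC13 (2.92 ± 0.03 at 3 h and 2.49 ± 0.09 at 0 h, SD, n = 3 each). H4C2, named after its values were seen, was at 3.81 ± 0.12 at 3 h and 4.22 ± 0.12 at 0 h, in the same direction as the H4 genes above the floor. The untested variants were H1-7, H1-8, H2AJ, H3-3A and H3-5, with changes of -0.12 to 0.10. H3-3A, the second H3.3 gene, was represented by a dim set (2.27 ± 0.05 at 3 h and 2.25 ± 0.09 at 0 h). The 13 histone probe sets listed under several genes were not used. The other untested members were H1-1, H1-3, H1-5, H1-6, H2AC1, H2AC4, H2AC7, H2AC12, H2AC13, H2AC14, H2AC15, H2AC16, H2AC17, H2AC21, H2BC1, H2BC3, H2BC9, H2BC10, H2BC14, H2BC17, H2BC26, H3C1, H3C2, H3C3, H3C6, H3C7, H3C10, H3C11, H3C12, H4C1, H4C4, H4C6, H4C7 and H4C13.

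Genes that make, process, degrade and deploy histones were counted from lists. Over all tested genes 20.6% were higher and 30.8% lower, 51.3% in all. The share called was 50% for transcription, 73.3% for 3′ end processing and 76.9% for translation and decay. It was 62.5% for chaperones, 50% for deposition of variants and 47.4% for S phase markers. Transcription, deposition and S phase thus lay near the share of all tested genes. Of 8 tested transcription factors and regulators of histone genes 1 rose and 3 fell (median -0.12). CASP8AP2, also called FLASH, a core component of histone locus bodies, was at 6.06 ± 0.06 at 3 h and 7.09 ± 0.18 at 0 h (log2 -1.03, adjusted p = 7.16e-05). NPAT, the activator that cyclin E-CDK2 switches on at histone loci, fell by 0.38 (adjusted p = 0.0150). CCNE2, a cyclin E gene, fell by 0.59 (adjusted p = 0.00100), while the S phase factor gene E2F1 rose by 0.33 (adjusted p = 0.00292). Averaged over their probe sets, NPAT and CCNE2 were at -0.11 and -0.12 and not called.

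Of 15 tested genes for cleavage of the histone pre-mRNA 3′ end 3 rose and 8 fell (median -0.18). The U7 particle gene LSM10 fell by 0.43 (adjusted p = 0.000392). SYMPK, the scaffold of the cleavage complex, rose by 0.34 (adjusted p = 0.00101), SRRT by 0.47 (adjusted p = 0.00177) and SNRPB, a core protein of spliceosomal particles shared with U7, by 0.30 (adjusted p = 0.00198). SLBP, named after its values were seen, was at 10.09 at 3 h and 10.35 at 0 h (log2 -0.25, adjusted p = 0.00676). Averaged over their probe sets, SLBP was at -0.07 and SNRPB at 0.06, both not called.

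Of 13 tested genes for translation and decay of histone mRNA 2 rose and 8 fell (median -0.28). The decapping enzyme gene DCP2 fell by 0.68 (adjusted p = 8.07e-05). LSM1, of the ring that binds the oligouridylated tail, fell by 0.46 (adjusted p = 0.000194), and the checkpoint kinase gene ATR fell by 0.66 (adjusted p = 0.000549). UPF1, the helicase recruited to histone mRNA when replication stops, was at 7.84 ± 0.08 at 3 h and 7.27 ± 0.10 at 0 h and rose by 0.58 (adjusted p = 0.000299).

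Of 16 tested chaperones of replication-coupled histones 5 rose and 5 fell (median 0.08). CHAF1A, the large subunit of chromatin assembly factor 1, rose by 0.44 (adjusted p = 0.000325) and the FACT subunit gene SSRP1 by 0.29 (adjusted p = 0.00158). The histone acetyltransferase gene HAT1 fell by 0.35 (adjusted p = 0.000888) and the H3-H4 chaperone gene ASF1A fell by 0.32 (adjusted p = 0.00506). Without s_at and x_at probe sets CHAF1A, SSRP1 and ASF1A were at 0.20, 0.07 and -0.09 and not called.

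Of 16 tested genes for deposition of variant histones 6 rose and 2 fell (median 0.03). UBN1, a subunit of the HIRA complex that deposits H3.3, was at 6.98 ± 0.04 at 3 h and 5.83 ± 0.09 at 0 h (SD, n = 3 each), a log2 change of 1.14 (adjusted p = 1.13e-05). HIRA itself was at 7.94 ± 0.12 at 3 h and 7.15 ± 0.10 at 0 h, a change of 0.79 (adjusted p = 0.000125). SRCAP, the ATPase that loads H2A.Z, rose by 0.47 (adjusted p = 0.000730), and YEATS4, a subunit of the same remodelling complexes, fell by 0.53 (adjusted p = 0.000148).

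Beside these, of 19 tested S phase markers 7 rose and 2 fell (median 0.12). UHRF1, which reads hemimethylated DNA at forks, rose by 0.54 (adjusted p = 0.000178) and the ribonucleotide reductase gene RRM2 by 0.32 (adjusted p = 0.00185), while the cyclin gene CCNE2 fell as given above and CCNA2 fell by 0.32 (adjusted p = 0.00151). E2F1 and CCNE2 are on both this list and that of histone gene transcription. The replication-dependent histone genes and the S phase markers had medians on opposite sides of 0, and that difference was not tested. Without s_at and x_at probe sets RRM2 was at 0.05 and not called.

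**Figure D5:**
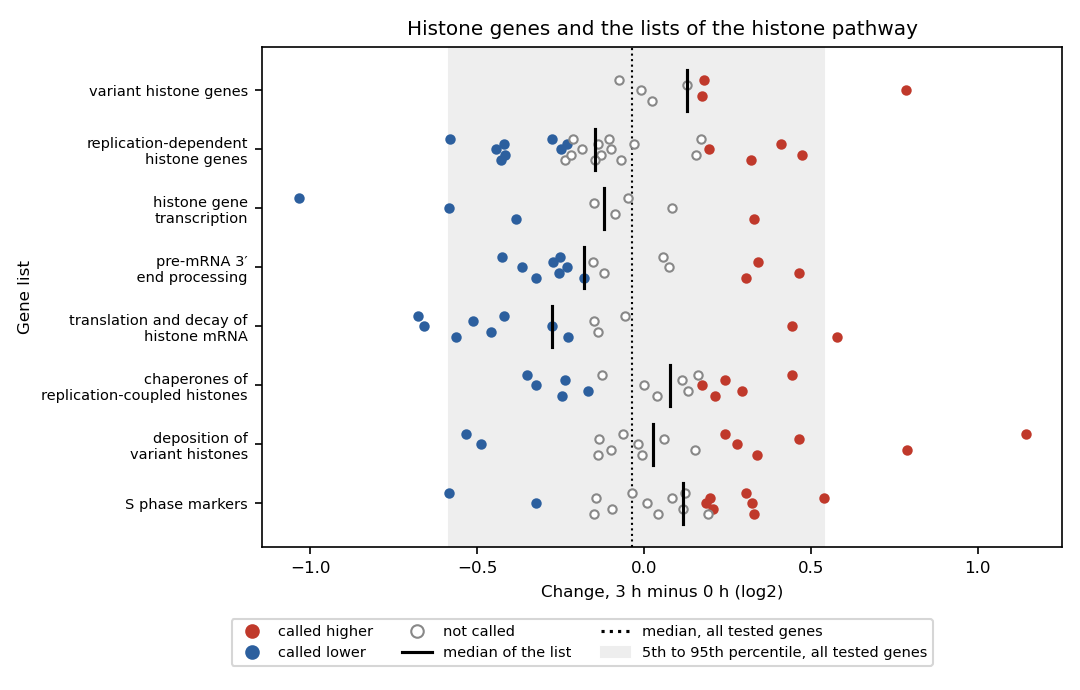
Log2 change, 3 h minus 0 h, of each tested gene of the 2 histone classes and of 6 lists, called increases in red, called decreases in blue and open circles not called, with the median of each list as a bar, that of all tested genes (-0.04) as a dotted line and the 5th to 95th percentile of all tested genes in grey. The lists of 3′ end processing and of translation and decay have the lowest medians, -0.18 and -0.28, and UBN1 at 1.14 and CASP8AP2 at -1.03 lie farthest out.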

How the data were processed

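The deposited table holds log2 values of 49372 probe sets on 6 arrays. The log2 scale was read from the deposited values, whose array medians are 5.30 to 5.34. MAS5 and RMA stand in the submitters' processing notes, with neither their versions nor which made these values, and any filter is not given in the sources used. Values made nearly equal in distribution cannot show a change of total RNA. The number of arrays limits the precision.

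Groups were taken from sample titles. Of the probe sets, 79 are controls and were left out, 44988 have 1 symbol, 1832 several and 2473 none, by the platform annotation, and all 75 histone symbols matched the gene table of GRCh38.p14. The platform gives no genome build, so coordinates are those of the promoter table. The brightest probe set over the 6 arrays stood for a gene, and 5911 genes under log2 4.64 were left out. The 3 h arrays were compared with the 0 h arrays in limma 3.58.1 (R 4.3.3; functions lmFit and eBayes) over 12221 genes. Adjustment was by Benjamini-Hochberg with calls under 0.05, and likewise over all probe sets above the floor. Adjusted p-values are from these fits. The fit was also run on simulated data, with the spread of the 0 h arrays and far fewer changed genes than were called here. That run does not show how reliable the present calls are.

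Genes named with values on each array were the called replication-dependent genes with the 12 largest changes, the tested variants and the 6 members with the brightest probe sets; lists name the 4 smallest p. Alternatives covered normalization, floor, choice of probe set, variance moderation, weights for arrays, a replicate block, the threshold and leaving out each array. The members and lists were chosen with earlier results of these data known. Figures were drawn with matplotlib 3.10.9.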

Additional observations from a re-analysis of the deposited data

How the results depend on the processing

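The counts over all genes and over the histone pathway lists stayed within 1.5 times of those reported under every alternative run, and 0 variant genes were lower under any of them. Replication-dependent genes called higher (4) numbered 2 with the floor at the 60th percentile, 2 with the mean of all probe sets, 2 without s_at and x_at probe sets and 2 at a threshold of 0.01, and 2 to 5 with an array left out. Those called lower (8) numbered 3 of 13 tested without s_at and x_at probe sets (H2AC8, H2AC11 and H2BC5), 5 at 0.01 and 7 to 10 with an array left out. Variant genes called higher (3) numbered 1, H2AX, with median centring, without a floor, without s_at and x_at probe sets, at 0.01 and with the replicate number as a block, and 1 to 3 with an array left out (1 without replicate 1 or 3 at 0 h). Their median change (0.13) was 0.044 without a floor, 0.042 with the mean of probe sets and 0.025 without s_at and x_at probe sets, and 0.11 to 0.16 with an array left out. S phase markers called higher (7) numbered 4 at 0.01 and 5 to 7 with an array left out, and those lower (2) numbered 1 with the mean of probe sets.

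Signs turned for H2AZ2 (-0.071) and H4C12 (0.20) without s_at and x_at probe sets, for MACROH2A1 (0.0076) and H2AC20 (-0.034) with the mean of probe sets, for H2AZ1 (0.030) and MACROH2A2 (-0.0056) with quantile normalization and for MACROH2A2 (-0.012) with median centring. With an array left out, signs turned within -0.033 to 0.0037 for H2AZ1, -0.012 to 0.30 for H2AC20, -0.058 to 0.070 for MACROH2A2 and -0.086 to 0.071 for H4C16. All of these but H2AZ2 and H4C12 were uncalled to begin with. Where another probe set or fewer samples enter, the alternative's construction differs in that; beyond it the cause was not tested.

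The replicate numbers of the titles showed no sign of pairing: deviations of same-numbered arrays from their group means correlated at -0.04, -0.02 and -0.19 across genes. Differently numbered arrays gave -0.14 to 0.17. With so few arrays these values cannot establish that the samples were unpaired. With the replicate numbers as a block, 2336 genes were higher and 3502 lower, H3-3B (adjusted p = 0.0598), H2AZ2 (0.0592) and H2BC4 (0.0668) were not called, and H3-4 was (0.0242).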
